A study of Mus musculus with 15 samples.

Results

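Semaphorins, plexins and neuropilins were followed as 10 genes among the 42454 entries of the deposited table: the ligands Sema4a, Sema4b, Sema4c, Sema4d and Sema6d, the receptors Plxna1, Plxnb2 and Plxnd1, and the co-receptors Nrp1 and Nrp2. They were found by their exact symbols, each of which the table lists once, and were chosen with earlier results of these data known. RNA was sequenced from macrophages of mouse ear skin in 15 libraries, 3 in each of 5 groups. All mice had the genotype CX3CR1-creERT2/gfp R26-tdT/+ and all received tamoxifen, so GFP and the inducible Cre were both driven from the Cx3cr1 locus. The left ear was punched 3 weeks after tamoxifen, and CD11b+ CD64+ Lin- cells of both ears were sorted 10 days after the punch. The recNAM group held nerve-associated macrophages recruited to the punched ear (gate GFP+/Tomato-), and injNAM held resident nerve-associated macrophages of the punched ear (gate GFP+/Tomato+). The sNAM group held resident nerve-associated macrophages of the unpunched ear. Interstitial macrophages (gate GFP-/Tomato-) of the punched ear formed injIM, and those of the unpunched ear formed IM.

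Groups follow the titles of the libraries. In the labels the reporter tag goes with the punch instead of the population: injIM carries the tag GFP+/Tomato+ and sNAM the tag GFP-/Tomato-, against titles and gates. The genotype field spells the locus Cxcr1, where the protocol spells it CX3CR1. All libraries came from 3 mice, and no label ties a library to a mouse, so the groups share animals while the tests treat the libraries as independent. The labels state neither age nor sex of the mice.

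Semaphorins are ligands that first became known as cues that steer growing axons. They bind plexins, receptors whose cytoplasmic part acts on small GTPases and through them on the actin skeleton and on cell adhesion. Neuropilins carry little signalling of their own: they pair with plexins to bind secreted semaphorins, and with VEGF receptors to bind VEGF. In the immune system transmembrane semaphorins also act between cells, on T cells, dendritic cells and macrophages.

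Depth was 20.4 to 23.4 M reads per library in recNAM (M, 10 to the power of 6), 16.9 to 19.5 M in injNAM, 5.64 to 18.6 M in sNAM, 20.4 to 21.9 M in injIM and 20.6 to 23.8 M in IM. The nerve-associated groups of resident cells stood apart from the others in spread. Pearson's r between libraries of 1 group, on log2 values of the tested genes, was 0.762 to 0.772 in injNAM and 0.644 to 0.776 in sNAM, against 0.934 to 0.955 in recNAM, 0.966 to 0.983 in injIM and 0.972 to 0.982 in IM. Of the tested genes, 4.26 to 8.79% had no read in an injNAM library and 3.89 to 25.8% in an sNAM library. Of 10 pan-macrophage markers, 9 were detected in every library, and Aif1 was listed at 0 throughout. The 8 T and NK cell markers summed to 3.52 to 11.4 CPM (reads scaled to a library total of 1 M) in recNAM, 19.3 to 476 CPM in injNAM, 9.58 to 419.7 CPM in sNAM, 2.35 to 4.74 CPM in injIM and 3.69 to 6.35 CPM in IM, with Ncr1 at 0 in every library. The 10 dendritic cell markers summed to 363 to 535 CPM in recNAM, 464 to 976 CPM in injNAM, 1806 to 2713 CPM in sNAM, 105 to 261 CPM in injIM and 267 to 621 CPM in IM. The 6 fibroblast markers summed to 44.3 to 263 CPM in recNAM, 0.355 to 38.8 CPM in injNAM, 6.28 to 52.5 CPM in sNAM, 275 to 1046 CPM in injIM and 253 to 438 CPM in IM, with Lum at 0 in every sNAM library and Pdgfra at 0 in every injNAM library. The 7 mast cell markers summed to 113 to 177 CPM in recNAM, 7.35 to 78.2 CPM in injNAM, 0.161 to 1190 CPM in sNAM, 200 to 217 CPM in injIM and 403 to 534 CPM in IM.

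Values are normalized counts, the reads of a gene divided by the authors' factor for the library. Genes with a mean of at least 100 over the 15 libraries were tested, which kept 8656 genes and 10 of the 10 members. Sema4c passed through injNAM and sNAM, since its means in recNAM, injIM and IM lay under 100. Comparisons were tested with limma on log2(normalized count + 100), and a gene was called at a Benjamini-Hochberg adjusted p under 0.05 over all genes tested. Differences on this scale understate the change of genes with low values.

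Levels between genes were set side by side per kilobase of exon. By this measure Nrp1 was the most abundant of the 10 transcripts in recNAM, injNAM, injIM and IM, with 1123 ± 250 normalized counts per kb in recNAM, 1066 ± 416 in injNAM, 1788 ± 180 in injIM and 2079 ± 202 in IM (SD, n = 3 each). In sNAM the first place went to Sema4a at 938 ± 170 per kb, with Nrp2 next at 874 ± 327 per kb, a gap within the spread of either. Sema4d took the second place in recNAM at 914 ± 193 per kb and in injNAM at 739 ± 134 per kb, the fourth in injIM at 519 ± 110.0 per kb and the ninth of 10 in IM at 75.8 ± 71.9 per kb. Sema4c was the least abundant in recNAM, sNAM, injIM and IM, and Sema4b was the least abundant in injNAM at 20.6 ± 10.2 per kb. These places depended on the length used. Per kilobase of coding sequence Nrp2 came first in all 5 groups, with 1821 in recNAM, 1792 in injNAM, 2953 in sNAM, 2769 in injIM and 2944 in IM. By that length Sema4a, at 1413, was next to Nrp2 in sNAM. Sema4d had 1677 in recNAM, next to Nrp2, and 1357 in injNAM, 952 in injIM and 139 in IM, below both neuropilins.

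**Figure D1:**
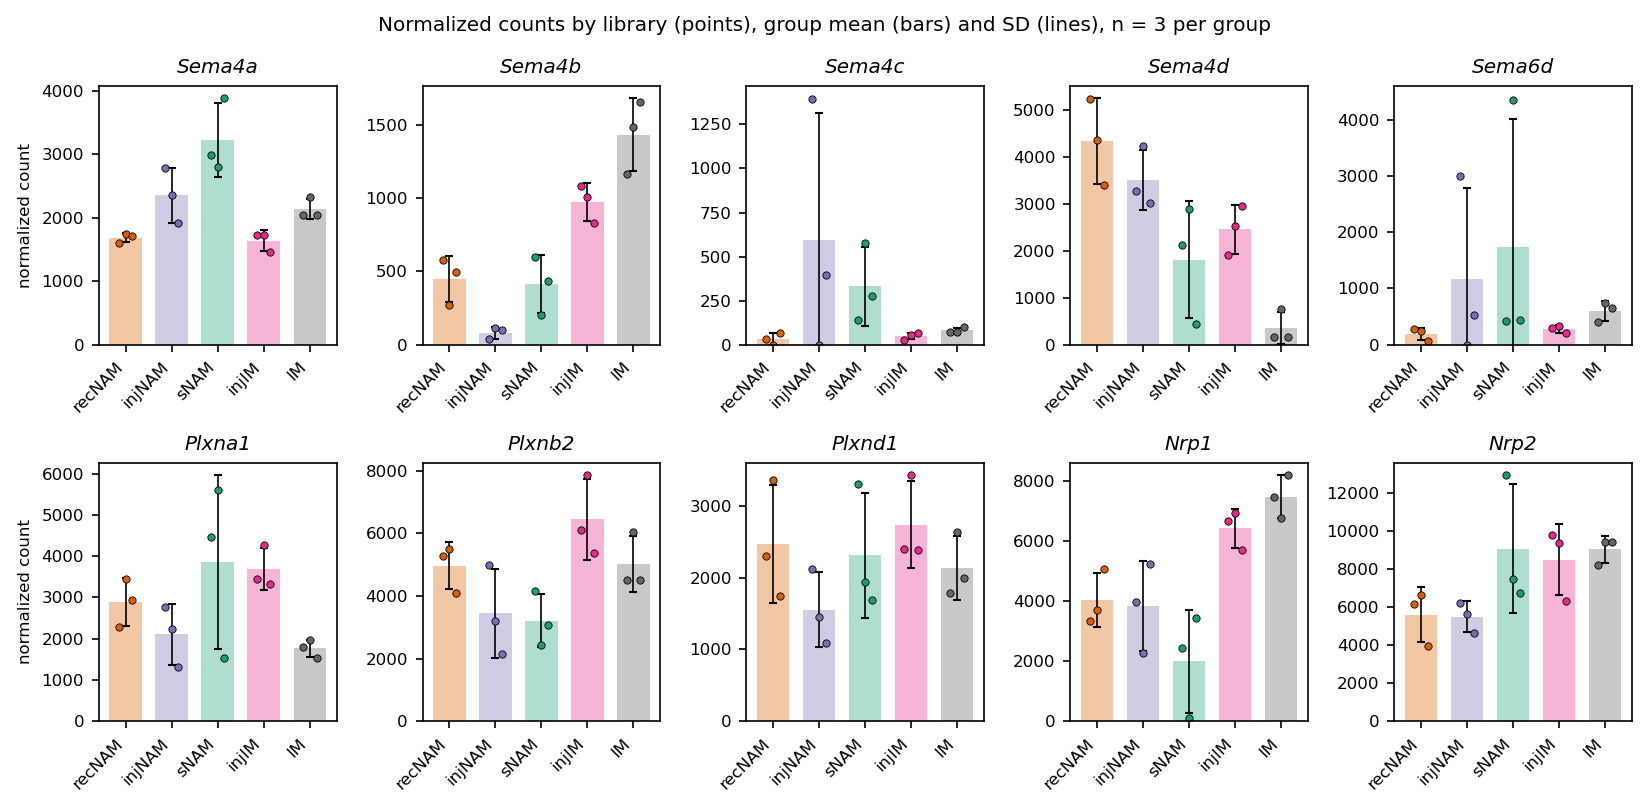
Normalized counts of the 10 genes in each library (points), with the group mean (bar) and its SD (error bar, cut at 0), for recNAM, injNAM, sNAM, injIM and IM from left to right, n = 3 each. Sema4d averages 4331 in recNAM and 359 in IM, Sema4b is lowest in injNAM, and single libraries stand far above the others of their group for Sema4c in injNAM and for Sema6d in injNAM and sNAM.

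After the punch, interstitial macrophages carried more Sema4d and Plxna1 transcript than those of the unpunched ear. In injIM against IM, 2 of 10 members were called, both higher, where 8.18% of all tested genes were called. The median log2 difference of the 10 members was -0.16, against 0.03 over all tested genes. Single libraries of injIM and IM did not overlap for 6 members, 2 above and 4 below, against 24.9% of all tested genes. The members whose injIM libraries lay below IM were Sema4a, Sema4b, Sema4c and Sema6d, and none of them passed the threshold.

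In the unpunched ear, resident nerve-associated macrophages had less Nrp1 than interstitial ones. In sNAM against IM, 1 of 10 members was called, where 1.05% of all tested genes were called, and the member median was 0.31 against -0.26 over all genes on the log2 scale. Libraries of sNAM and IM did not overlap for 5 members, 2 above and 3 below, against 27.9% of all tested genes. In the punched ear the called member was Sema4b. It was the sole member called in injNAM against injIM, where 0.485% of genes were called, and in recNAM against injIM, where 7.53% were called. The member medians were -0.70 and -0.36 on the log2 scale, against -0.09 and -0.02 over all genes. Libraries did not overlap for 8 members in injNAM against injIM, 2 above and 6 below, where 21% of all tested genes did not overlap, and for 3 members in recNAM against injIM, 1 above and 2 below, against 23.9%. These comparisons share the injIM libraries, so their values are given side by side and not counted as 2 observations.

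For 3 comparisons no gene was called by limma, member or not, a share of 0% in each. They were injNAM against sNAM, recNAM against injNAM, and the interaction, which sets the punch difference of resident nerve-associated macrophages against that of interstitial ones. At an unadjusted p under 0.05 they held 1, 2 and 2 members and 586, 619 and 444 genes, and edgeR called 0 members and 111, 0 and 7 genes. Libraries did not overlap for 4 members in injNAM against sNAM, against 12% of all tested genes, and for 2 in recNAM against injNAM, against 13.7%. The member of injNAM against sNAM was Nrp1 (log2 difference 1.60, 95% interval 0.07 to 3.13, adjusted p = 0.723 by limma). Of the interaction they were Plxna1 (-1.74, interval -2.99 to -0.49, adjusted p = 0.839 by limma) and Nrp1 (1.81, interval 0.24 to 3.39, adjusted p = 0.876 by limma). The effect of the punch was therefore not shown to differ between the populations for any member.

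**Figure D2:**
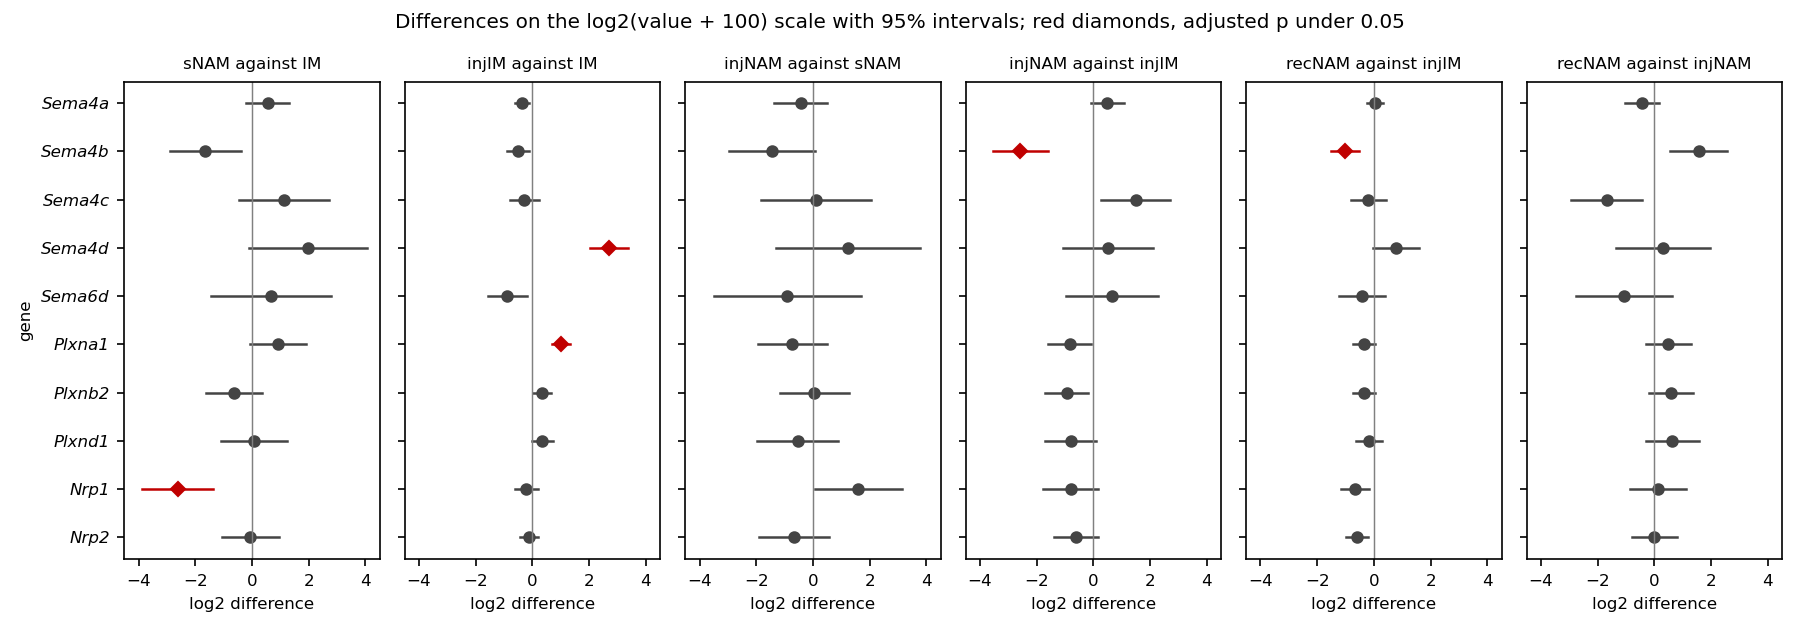
Log2 difference of each member in 6 comparisons, on the log2(normalized count + 100) scale, with 95% intervals; red diamonds are called at an adjusted p under 0.05 and grey circles are not. Intervals of the comparisons with injNAM and sNAM are wider than those of injIM against IM and recNAM against injIM.

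Sema4d, a transmembrane semaphorin also shed from the cell surface, binds plexins of the B family and, on immune cells, CD72. Its values were 5231, 4356 and 3406 in recNAM, 3269, 4222 and 3022 in injNAM, 2124, 2879 and 431 in sNAM, 1911, 2520.3 and 2944 in injIM, and 156, 753 and 169 in IM. All libraries of the punched ear, whichever population they held, lay above every IM library, and recNAM lay above injIM without overlap. Within IM, replicate 2 stood far above the other libraries. The mean was 2459 ± 519 in injIM and 359 ± 341 in IM, 6.85-fold higher in injIM, with a log2 difference of 2.70 ± 0.31 (SE; 95% interval 2.04 to 3.36, adjusted p = 1.73e-05 by limma). Without IM replicate 2 the log2 difference was 3.27. In these cell-sorted bulk libraries a larger share of cells with the transcript and more transcript per cell cannot be told apart. The T and NK cell markers, cells that also carry Sema4d, summed to 2.35 to 4.74 CPM in injIM and 3.69 to 6.35 CPM in IM. Other marker sums were lower in injIM without overlap. Mast cell markers summed to 200 to 217 CPM in injIM and 403 to 534 CPM in IM. Dendritic cell markers, mostly Cd209a in both, summed to 105 to 261 CPM in injIM and 267 to 621 CPM in IM. The part of these cells in the differences of Sema4d and Plxna1 was not tested.

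The other differences of Sema4d were not called. Against injIM it differed in recNAM by 0.79 (interval -0.02 to 1.60, adjusted p = 0.273 by limma). In sNAM against IM the difference was 1.97 (interval -0.10 to 4.04, adjusted p = 0.367 by limma), with the libraries of both groups overlapping. Both were called without IM replicate 2 (adjusted p = 0.0239 and 0.0254 by limma), and that of sNAM against IM also with a pooled spread (0.0396). In the nerve-associated groups of resident cells, the T and NK cell markers reached 476 CPM in injNAM and 419.7 CPM in sNAM, and their part in the Sema4d level there was not tested. The call for injIM against IM was lost when the spread was pooled over all groups (adjusted p = 0.0769 by limma) and with edgeR on the recovered reads of all 15 libraries (adjusted p = 0.375). It held with edgeR on the 9 libraries of recNAM, injIM and IM (adjusted p = 0.037), an alternative chosen after seeing the data.

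Sema4d lies at chr13:51685529-51793747 on the minus strand (GRCm38.p6). Upstream sequence is shown for Sema4d and Sema4b, the ligands with called differences, with CG dinucleotides in capitals. The sequences come from RefSeq on GRCm38.p6 and are printed 5′ to 3′. The Sema4d stretch covers bases 250 to 110 before a RefSeq start at chr13:51748920-51749060 (minus strand). This start lies inside the gene as placed above, so it belongs to a transcript that begins further downstream, and bases nearer to it are not printed. The Sema4b window covers the 250 bases before a start at chr7:80186620-80186869 (plus strand).
Sema4d: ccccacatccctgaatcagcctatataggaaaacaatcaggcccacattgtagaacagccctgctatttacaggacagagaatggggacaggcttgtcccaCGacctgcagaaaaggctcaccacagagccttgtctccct
Sema4b: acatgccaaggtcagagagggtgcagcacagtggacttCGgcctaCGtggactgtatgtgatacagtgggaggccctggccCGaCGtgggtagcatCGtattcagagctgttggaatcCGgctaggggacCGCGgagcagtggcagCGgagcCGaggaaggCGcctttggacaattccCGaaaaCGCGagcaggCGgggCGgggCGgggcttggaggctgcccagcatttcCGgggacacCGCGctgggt
The printed Sema4d stretch holds 1 CG dinucleotide in 141 bases. Over the full 250 bases before this start there are 2, and over those before the other Sema4d starts 1 and 2. The Sema4b window holds 20 in 250 bases, and the median over all 32851 mouse windows of 250 bases was 6. Both strands were searched for the PU.1 core GAGGAAGT, the AP-1 motif TGANTCA, the SMAD motif GTCTAGAC and the TATA motif TATAAA, which 2.44%, 6.75%, 0.167% and 12.4% of all windows hold. The Sema4d stretch holds 1 AP-1 match, TGAATCA, and the Sema4b window none of the 4. RefSeq windows were matched for 9 of the 10 members, all but Plxna1, 18 windows in all. Sema4d and Sema4c each had an AP-1 match in 1 window, and no member window held another of these motifs. A match is a string of letters, and binding was not measured here.

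Sema4b, the next transmembrane ligand, is known from T cells and basophils. It was highest in IM and lowest in injNAM. Its values were 578, 269.9 and 496 in recNAM, 36.1, 113 and 100.2 in injNAM, 601, 204 and 435 in sNAM, 1084, 1008 and 832 in injIM, and 1165, 1484 and 1654 in IM. Every nerve-associated library, resident or recruited, lay below every interstitial library. The fibroblast markers given above were also lower in recNAM and injNAM than in injIM and lower in sNAM than in IM, without overlap, and the mast cell markers lower in recNAM and injNAM than in injIM. Their part in the Sema4b level was not tested. Against injIM, Sema4b fell by 2.57 on the log2 scale in injNAM (SE 0.46, 95% interval -3.53 to -1.62, adjusted p = 0.0164 by limma), with means of 83.0 ± 41.1 in injNAM and 975 ± 129 in injIM, 11.7-fold higher in injIM. Against the same injIM libraries it fell by 1.01 in recNAM (SE 0.23, interval -1.50 to -0.52, adjusted p = 0.00921 by limma), with a mean of 448 ± 160 in recNAM, so that injIM was 2.18-fold higher.

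In sNAM against IM the Sema4b difference was -1.65 (interval -2.90 to -0.40, adjusted p = 0.191 by limma) and was not called, except with a pooled spread (0.0224), although the libraries did not overlap. In injIM against IM it was -0.51 (interval -0.90 to -0.11, adjusted p = 0.117 by limma). In recNAM against injNAM it was 1.56 (interval 0.57 to 2.56, adjusted p = 0.363 by limma), with all recNAM libraries above all injNAM libraries. The call in injNAM against injIM was lost without injNAM replicate 1 (adjusted p = 0.116 by limma) or replicate 3 (0.0798). The call in recNAM against injIM was lost with edgeR on the reads of 15 libraries (adjusted p = 1) or 9 libraries (0.0552), with a pooled spread (0.666), without a filter (0.0526), without injIM replicate 1 (0.066) and without recNAM replicate 2 (0.0814). Sema4b lies at chr7:80186841-80226527 on the plus strand.

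The balance of both ligands within a library is free of the library's scaling. Per kilobase of exon, the level of Sema4d over that of Sema4b was 9.08 ± 4.12 in recNAM, 44.8 ± 28.0 in injNAM, 5.28 ± 5.92 in sNAM, 2.21 ± 0.758 in injIM and 0.21 ± 0.191 in IM (SD, n = 3 each). Sema4d exceeded Sema4b in every library of the punched ear, where the lowest ratio was 1.50 in an injIM library, and Sema4b exceeded Sema4d in every IM library, where the highest ratio was 0.431. As a share of the summed level of the 10 members per kilobase, Sema4d made up 19.6 ± 3.62% in recNAM, 17.7 ± 5.63% in injNAM, 8.49 ± 6.02% in sNAM, 9.28 ± 2.75% in injIM and 1.38 ± 1.25% in IM.

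Sema4a is a costimulator of T cells known from dendritic cells and macrophages. Its values were 1609, 1742 and 1708 in recNAM, 2788, 2358 and 1920.0 in injNAM, 2987, 2795 and 3886 in sNAM, 1737, 1734 and 1455 in injIM, and 2047, 2323 and 2048 in IM. Every sNAM library lay above every library of the other groups, and every injIM library lay below every IM library. Neither difference was called: it was 0.56 in sNAM against IM (interval -0.21 to 1.32, adjusted p = 0.509 by limma) and -0.36 in injIM against IM (interval -0.61 to -0.12, adjusted p = 0.0598 by limma). The one of injIM against IM was called with a pseudocount of 10 (0.0424) and with TMM scaling (0.0361). The sum of the dendritic cell markers was also highest in sNAM, at 1806 to 2713 CPM against 267 to 621 CPM in IM. It was 105 to 261 CPM in injIM. In sNAM most of it was Ccr7 (mean 1551 CPM, against 25.6 CPM in IM). Cd209a (314 against 402 CPM) and Xcr1 (5.68 against 19.5 CPM) averaged lower in sNAM than in IM. The remaining markers of the list averaged higher in sNAM, among them Flt3 (139 against 1.29 CPM) and Zbtb46 (44.5 against 19.5 CPM). The part of dendritic cells in the Sema4a level was not tested. Sema4a lies at chr3:88435959-88461182 on the minus strand.

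Sema4c, a ligand of plexin-B2, had 32.7, 0 and 66.0 in recNAM, 1392, 0 and 395 in injNAM, 139.7, 576 and 276 in sNAM, 28.7, 55.0 and 65.3 in injIM, and 74.3, 71.6 and 98.5 in IM. High values occurred in resident nerve-associated libraries alone, and in injNAM the values ran from 0 to the highest of all 15 libraries. In the same order of libraries, the T and NK cell markers summed to 476, 19.3 and 446 CPM in injNAM. In sNAM they summed to 175, 9.58 and 419.7 CPM, where the highest Sema4c value went with the lowest sum. The part of these cells in the Sema4c level was not tested. A count of 0 allows up to 3 reads, 2.34 normalized counts in recNAM replicate 2 and 2.94 in injNAM replicate 2, for counting error of PCR-amplified reads only. No difference of Sema4c was called, the largest being -1.69 in recNAM against injNAM (interval -2.96 to -0.42, adjusted p = 0.487 by limma) and 1.49 in injNAM against injIM (interval 0.28 to 2.71, adjusted p = 0.296 by limma). Both were called without injNAM replicate 2, at -2.72 (adjusted p = 0.0431 by limma) and 2.53 (adjusted p = 0.0425 by limma). Sema4c passed the filter through injNAM and sNAM, so these calls are not independent of the filter.

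Sema6d, known in mice as a ligand of plexin-A1 in dendritic cells and osteoclasts, had 274, 236 and 70.4 in recNAM, 2999.5, 0 and 528 in injNAM, 423, 4352 and 440.4 in sNAM, 295, 332 and 199.7 in injIM, and 402, 747 and 648 in IM. A single library in injNAM and another in sNAM held most of its reads in those groups. The T and NK cell marker sums of these libraries are given with Sema4c, and the part of such cells in the Sema6d level was not tested. The sNAM library, replicate 2, was the shallowest of the 15 and had the most genes without a read, and its mast cell markers summed to 1190 CPM, against 403 to 534 CPM in IM; their part in the Sema6d level was not tested. In injIM against IM the libraries did not overlap and the difference was -0.88 (interval -1.55 to -0.21, adjusted p = 0.109 by limma), which was not called. Sema4c lies at chr1:36548639-36558349 on the minus strand and Sema6d at chr2:124089969-124667770 on the plus strand. Genes on the opposite strand overlap the spans of Sema4c (D430040D24Rik) and Sema6d (4930517E11Rik and 4930583P06Rik). Overlap of exons was not checked, and no label states whether the counting used strand. Reads of any shared exons could not be told apart without strand.

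Plxna1 encodes plexin-A1, which binds Sema6d and, together with neuropilins, secreted semaphorins. It had 2294, 3456 and 2927 in recNAM, 2767, 2238 and 1303 in injNAM, 4463, 5607 and 1523 in sNAM, 3453, 4277 and 3335 in injIM, and 1802, 1956 and 1542 in IM. Every injIM library lay above every IM library. The mean was 3688 ± 513 in injIM and 1767 ± 209 in IM, 2.09-fold higher in injIM (log2 difference 1.02 ± 0.15 SE, 95% interval 0.70 to 1.33, adjusted p = 0.000217 by limma). The call was lost with a pooled spread (adjusted p = 0.975 by limma) and with edgeR on all 15 libraries (adjusted p = 1), and held with edgeR on the 9 libraries of recNAM, injIM and IM (adjusted p = 0.0254).

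Among resident nerve-associated macrophages Plxna1 differed by -0.72 between injNAM and sNAM (interval -1.93 to 0.49, adjusted p = 0.898 by limma), with overlapping libraries. In recNAM against injIM the difference was -0.35 (interval -0.74 to 0.04, adjusted p = 0.326 by limma). In injNAM against injIM it was -0.84 (interval -1.60 to -0.07, adjusted p = 0.358 by limma) and was not called, although all injNAM libraries lay below all injIM libraries. Per kilobase of exon, Plxna1 stood at 0.419 ± 0.029 of the level of Plxnb2 in injIM and 0.258 ± 0.0292 in IM. Plxna1 lies at chr6:89316314-89362620 on the minus strand. The antisense gene Gm26811 overlaps its span, and reads of any exons the pair shares could not be told apart without strand.

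Plxnb2 encodes plexin-B2, a receptor for Sema4c and Sema4d. It had 5288, 5514 and 4110.3 in recNAM, 4983, 3207 and 2155 in injNAM, 4145, 2445 and 3060.3 in sNAM, 6093, 7872 and 5370.3 in injIM, and 4505, 6051 and 4512 in IM. All sNAM libraries lay below all IM libraries, and all injNAM libraries below all injIM libraries. None of its differences was called: -0.65 in sNAM against IM (interval -1.63 to 0.34, adjusted p = 0.562 by limma), -0.94 in injNAM against injIM (interval -1.70 to -0.19, adjusted p = 0.289 by limma) and 0.35 in injIM against IM (interval 0.04 to 0.66, adjusted p = 0.187 by limma). The one of injIM against IM was called without IM replicate 2 (0.49, adjusted p = 0.0354 by limma). Per kilobase of exon Plxnb2 averaged above the other plexins in all 5 groups, at 757 ± 115 in recNAM, 525 ± 218 in injNAM, 490 ± 131 in sNAM, 981 ± 196 in injIM and 765 ± 136 in IM. Per kilobase of coding sequence Plxna1 with 680 stood above Plxnb2 with 582 in sNAM.

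Plxnd1 encodes plexin-D1, known from blood vessels as the receptor of Sema3e. It had 2299, 3357 and 1749 in recNAM, 2123, 1444 and 1091 in injNAM, 3299, 1939 and 1691 in sNAM, 2398, 3431 and 2387 in injIM, and 1781, 2637 and 1987 in IM. Groups neighbouring in its order overlapped, from injIM with the highest mean to injNAM with the lowest. The lowest injIM library stood above the highest injNAM library, a difference of -0.81 in injNAM against injIM (interval -1.71 to 0.09, adjusted p = 0.490 by limma) that was not called. Plxnb2 lies at chr15:89155549-89180788 and Plxnd1 at chr6:115954811-115995005, both on the minus strand.

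Nrp1 encodes neuropilin-1, a co-receptor of secreted semaphorins and of VEGF-A that is also found on myeloid cells. Its values were 3349, 3712 and 5054 in recNAM, 3985, 2266 and 5249 in injNAM, 2429.8, 108 and 3436 in sNAM, 6674, 6919.9 and 5699 in injIM, and 7467, 6756 and 8207 in IM. Every interstitial library lay above every nerve-associated library, in the punched and the unpunched ear. In sNAM against IM the gene fell by 2.62 on the log2 scale (SE 0.60, 95% interval -3.87 to -1.37, adjusted p = 0.0412 by limma), with means of 1991 ± 1707 in sNAM and 7477 ± 725 in IM, 3.76-fold higher in IM. The size rested on sNAM replicate 2, the shallowest library, whose 108 normalized counts stand for 37 reads. Without it the difference was -1.34 (adjusted p = 0.163 by limma) and was no longer called. The call was also lost with edgeR (-1.98, adjusted p = 0.158), a pseudocount of 10 (0.111), no filter (0.121), and without any 1 of IM replicates 1 and 3, sNAM replicates 1 and 3 and injNAM replicates 1 and 3 (adjusted p = 0.0512 to 0.17 by limma). By the values given above, the sum of dendritic cell markers, mostly Ccr7 in sNAM, was higher in sNAM than in IM. That of fibroblast markers was lower, both without overlap. The part of these cells in the Nrp1 difference was not tested.

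In the punched ear neither Nrp1 difference was called: -0.81 in injNAM against injIM (interval -1.76 to 0.15, adjusted p = 0.534 by limma) and -0.67 in recNAM against injIM (interval -1.16 to -0.19, adjusted p = 0.0922 by limma). The one of recNAM was called without sNAM replicate 2 (0.0173), without injIM replicate 3 (0.046) and without recNAM replicate 3 (0.0356). In injIM against IM the Nrp1 difference was -0.21 (interval -0.61 to 0.18, adjusted p = 0.602 by limma), with overlapping libraries. Nrp1 lies at chr8:128358604-128503363 on the plus strand. The RefSeq window before a start at chr8:128358823-128359072 on the same strand is given here as that of the member with the highest level per kilobase of exon in IM, with CG dinucleotides in capitals. It lies inside the gene as placed above, downstream of the first base of the annotated gene.
Nrp1: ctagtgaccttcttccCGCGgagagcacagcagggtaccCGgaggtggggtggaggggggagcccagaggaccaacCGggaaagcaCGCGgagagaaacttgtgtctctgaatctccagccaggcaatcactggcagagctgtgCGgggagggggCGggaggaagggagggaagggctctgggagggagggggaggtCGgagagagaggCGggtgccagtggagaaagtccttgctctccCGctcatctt
The window holds 11 CG dinucleotides in 250 bases and none of the 4 motifs searched.

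Nrp2 encodes neuropilin-2, which binds secreted semaphorins and VEGF-C. It had 6174, 6657 and 3945 in recNAM, 6215, 5659 and 4636 in injNAM, 12960.3, 7487 and 6757 in sNAM, 9788, 9382 and 6342 in injIM, and 8232, 9450.3 and 9439 in IM. All injNAM libraries lay below all sNAM libraries and below all injIM libraries, while recNAM and injIM overlapped. The differences were -0.66 in injNAM against sNAM (interval -1.89 to 0.57, adjusted p = 0.914 by limma), -0.60 in injNAM against injIM (interval -1.38 to 0.17, adjusted p = 0.581 by limma) and -0.61 in recNAM against injIM (SE 0.19, adjusted p = 0.0565 by limma), and none was called. Without injIM replicate 3 or recNAM replicate 2 that of recNAM against injIM was called (-0.80, adjusted p = 0.00216, and -0.75, adjusted p = 0.0388 by limma). Nrp2 differed by -0.05 in sNAM against IM (interval -1.06 to 0.96, adjusted p = 0.973 by limma) where Nrp1 was called, and the difference between the genes was not tested. Per kilobase of exon, the level of Nrp1 over that of Nrp2 was 2.29 ± 1.22 in recNAM, 2.09 ± 1.08 in injNAM, 0.683 ± 0.723 in sNAM, 2.23 ± 0.325 in injIM and 2.40 ± 0.294 in IM. Nrp2 lies at chr1:62703285-62818695 on the plus strand, and the antisense gene Gm29083 overlaps its span. Reads of any exons they share could not be told apart without strand.

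Correlations of log2 values over the 15 libraries describe which members moved together, with group and depth shared by the points. Among the members the highest was that of Sema4c with Sema6d (Pearson's r = 0.82), both highest in injNAM replicate 1 and sNAM replicate 2, followed by Plxnb2 with Plxnd1 (0.78), Nrp2 with Plxnd1 (0.64) and Plxna1 with Plxnd1 (0.63). The lowest were Sema4b with Sema4d (-0.59), Sema4b with Sema4c (-0.55) and Nrp1 with Plxna1 (-0.51). Among all tested genes, those most like each member were Adgre5 and Spp1 for Sema4d (both 0.97), Ptk2 (0.95) and Enpep (0.92) for Sema4b, and Dot1l (0.93) and Ppan (0.91) for Sema4a. Sema4c was closest to Ppp1r16b and Sytl3 (both 0.90), and Sema6d to Cd163l1 (0.90) and Rbm28 (0.87). Of the plexins, Plxna1 was closest to Nomo1 (0.84) and Wrn (0.82), Plxnb2 to Btbd11 (0.94) and Tmem164 (0.91), and Plxnd1 to Mfsd14b (0.90) and Slc38a10 (0.86). Nrp1 was closest to Scamp4 and Anxa6 (both 0.96), and Nrp2 to Oat (0.91) and Itgb1 (0.90).

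**Figure D3:**
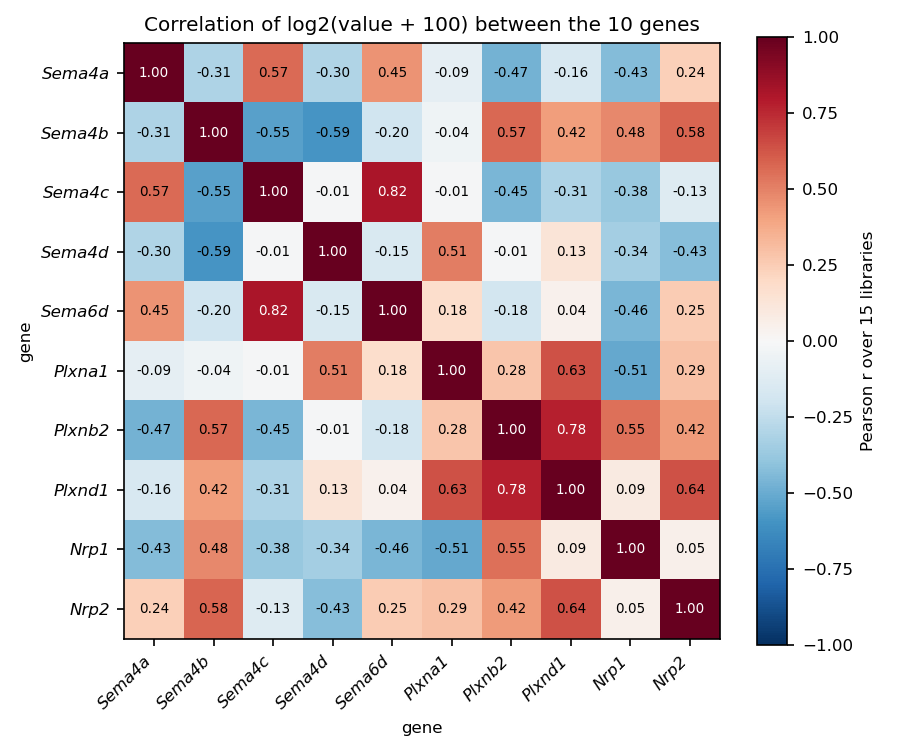
Pearson's r between members over the 15 libraries, on log2(normalized count + 100), as a colour scale between -1 and 1. Sema4c and Sema6d form the pair with the highest r (0.82), and Sema4b and Sema4d the pair with the lowest (-0.59).

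The remaining genes of the pathway were counted in 6 lists. Of 15 other semaphorins, 1 passed the filter, Sema6a, a transmembrane ligand of the plexin-A family. It fell in injIM against IM by 1.64 on the log2 scale (adjusted p = 0.00675 by limma), with means of 379 ± 276 in injIM and 1161 ± 173 in IM. In recNAM against injIM it fell by 1.56 (adjusted p = 0.0357 by limma), with a mean of 40.8 ± 40.5 in recNAM. Sema6a passed the filter through IM and injIM, since its means in the other groups lay under 100. Its falls from these groups are therefore not independent of the filter. The injIM values were 512, 563 and 61.5, with replicate 3 far below the others. Sema6a was also low in resident nerve-associated libraries, with 7.71, 5.82 and 48.1 in sNAM and 0, 281 and 0 in injNAM. The differences of -3.40 in sNAM against IM and -1.37 in injNAM against injIM were not called. The secreted semaphorins that neuropilins bind all stayed under the filter. Of 6 other plexins, Plxna2 and Plxnc1 passed the filter and neither was called in any comparison. Plxnb1, the B-family receptor best known for Sema4d and named here after its values were seen, was at most 4.82 normalized counts in any library.

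Of 20 co-receptors and VEGF-family partners 10 were tested. In injIM against IM the list median was 0.46 on the log2 scale against 0.03 over all genes, and 8.18% of tested genes were called. Of the list 4 rose and none fell. They were Met, the receptor of hepatocyte growth factor that associates with B plexins, with 1358, 1703 and 894 in injIM and 244, 427 and 109 in IM (log2 difference 2.04 ± 0.30 SE, adjusted p = 0.00024 by limma), Ptprc (0.47), Pgf (1.11) and Vegfa (0.83, adjusted p = 0.0278 by limma). IM replicate 2 had the highest value of IM for Met, Pgf and Vegfa, as for Sema4d. In recNAM against injIM, where 7.53% of all tested genes were called, 3 rose and none fell: Cd72, Vegfa and Pgf. Cd72, the lymphoid receptor of Sema4d, had 1569, 1275 and 1637 in recNAM and 287, 319.7 and 458 in injIM (log2 difference 1.82 ± 0.21 SE, adjusted p = 3.37e-05 by limma). High Cd72 was not particular to recNAM. It had 1876, 1284 and 1193 in injNAM and 1867, 827 and 1752 in sNAM, against 267, 261 and 170 in IM. Every nerve-associated library lay above every interstitial one, but Cd72 was not called in injNAM against injIM or sNAM against IM. Vegfa, a ligand of neuropilin-1, averaged 17981 ± 981 in recNAM and 8987 ± 1541 in injIM (1.01 ± 0.28 SE, adjusted p = 0.0334 by limma).

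Of 4 proteases that shed or process semaphorins, all were tested. In injIM against IM 1 was called and in recNAM against injIM 1, where 8.18% and 7.53% of all tested genes were called. Mmp14, a membrane protease that sheds Sema4d from tumour cells, had 6713, 8658 and 9826 in injIM and 1964, 4603 and 1867 in IM, without overlap (log2 difference 1.65 ± 0.23 SE, adjusted p = 0.000101 by limma). Furin, which cleaves semaphorin precursors, fell in recNAM against injIM by 0.73 (SE 0.16, adjusted p = 0.00579 by limma), with 8860, 10188 and 7829 in recNAM and 17132, 16131 and 11816 in injIM. Adam10 and Adam17 were not called in any comparison.

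Of 36 plexin effectors 27 were tested. In injIM against IM, where 8.18% of all tested genes were called, Mical1 (log2 difference 1.09) and Sh3bp1 (0.62) rose and Mras (-0.66) fell. The other 24 were not called. In recNAM against injIM 24 were also not called, where 7.53% of all tested genes were called. Fyn, a kinase that acts downstream of plexins, rose by 0.95 (SE 0.20, adjusted p = 0.0056 by limma), with 3128, 3287 and 4124 in recNAM and 1767, 1682 and 1828 in injIM. In the same comparison Mras (-0.98) and Mical2 (-1.11) fell. In sNAM against IM, where 1.05% of all tested genes were called, the called effector was Arhgap1, a GTPase-activating protein. It fell by 2.97 (SE 0.61, adjusted p = 0.0289 by limma), with 45.3, 0 and 896 in sNAM and 1618, 2175 and 1692 in IM. List medians stayed between -0.21 and 0.23 on the log2 scale in the 7 comparisons. Of 42 genes of the other axon guidance families (netrins, slits, ephrins and repulsive guidance molecules with their receptors), 4 were tested, Unc5b, Srgap2, Efnb2 and Rgmb, and none was called. No list gene was called in injNAM against sNAM, injNAM against injIM, recNAM against injNAM or the interaction.

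**Figure D4:**
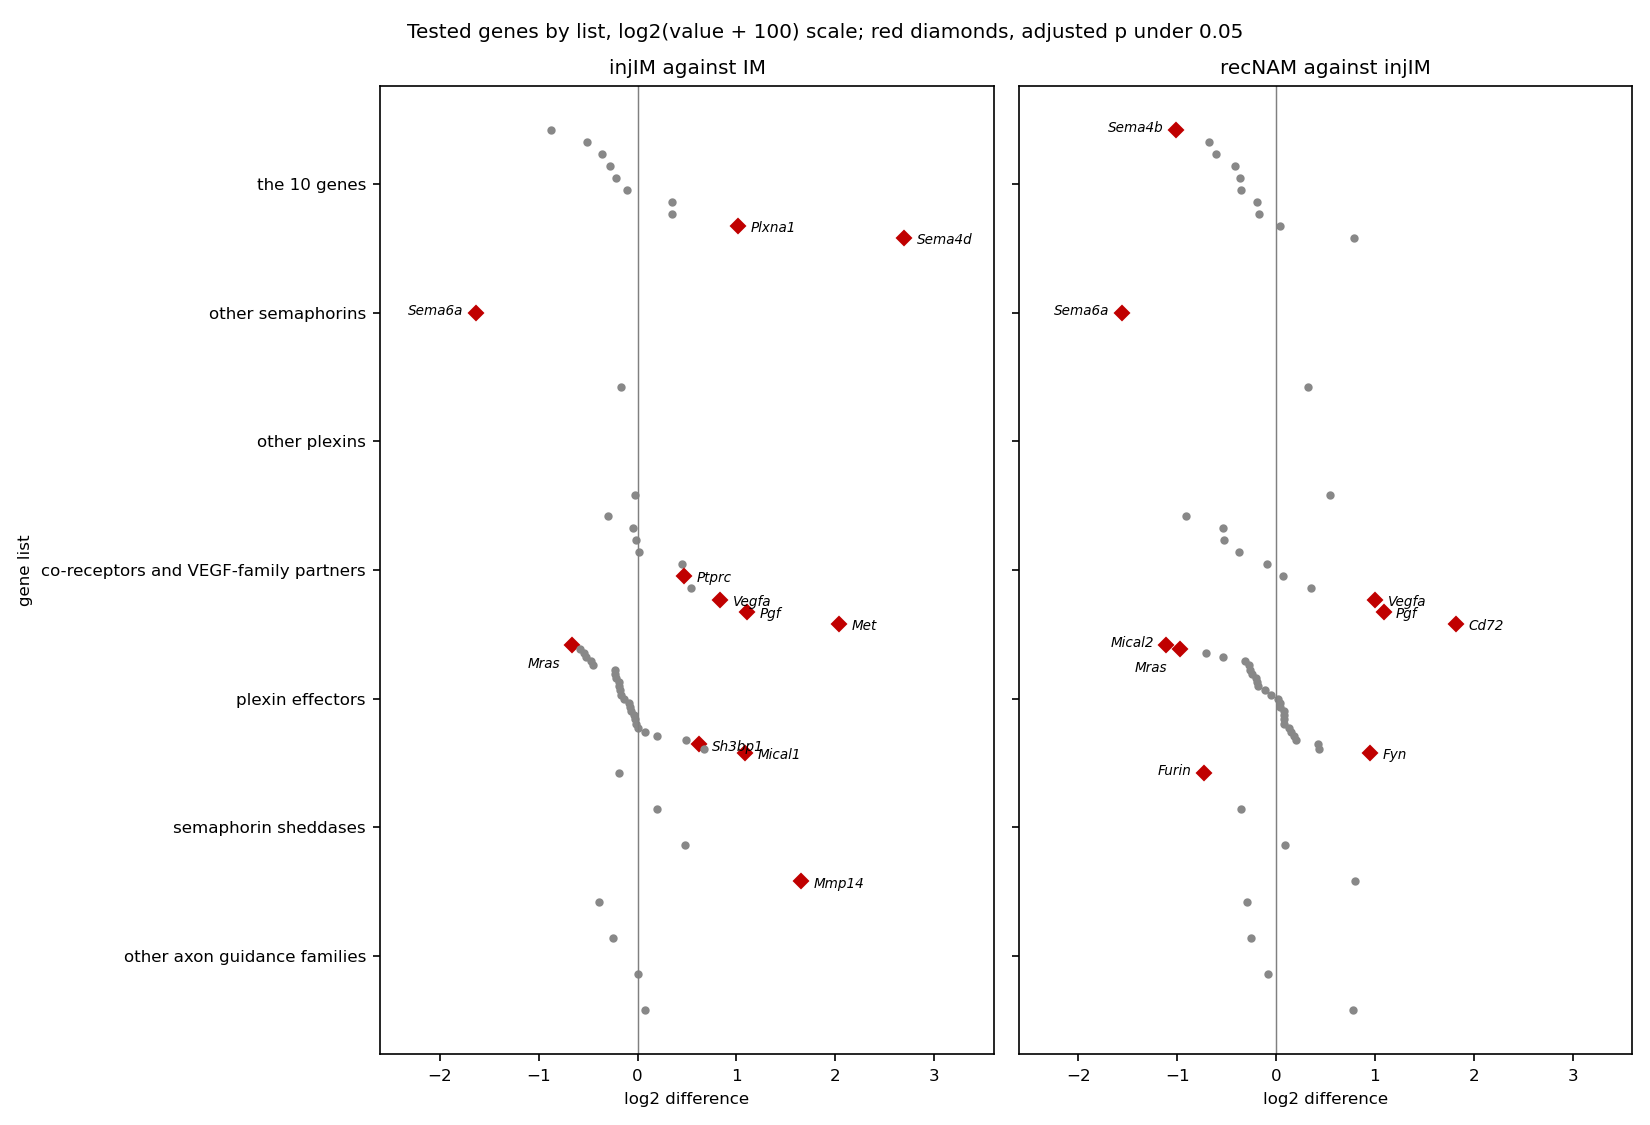
Log2 difference of the 10 members and of every tested gene of the 6 pathway lists in injIM against IM and in recNAM against injIM, on the log2(normalized count + 100) scale; red diamonds are called at an adjusted p under 0.05 and named. Of the lists, Met (2.04) and Mmp14 (1.65) lie highest in injIM against IM and Cd72 (1.82) in recNAM against injIM, and Sema6a lies low in both.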

How the data were processed

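RNA of 15 sorted macrophage libraries was sequenced. The submitters' processing notes name build mm10, the aligner STAR 2.7.2b, cutadapt, bcl2fastq 2.18, DESeq2 1.24.0 and R 3.6.1. Counter, gene annotation and use of strand: not given in the sources used here. Per the labels' protocols, cDNA came from 250 pg of RNA with 13 PCR cycles. The deposited signal is the authors' normalized count, the reads of a gene divided by 1 factor per library. Divided by the smallest value of its library, each value above 0 came out whole within 0.01 (100%), which gave the reads used for depth and edgeR. Libraries of a group differed by more than sampling noise in every pair (lowest chi-square per degree of freedom 32.17).

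Computed here were 7 comparisons with limma 3.58.1 (R 4.3.3): log2(value + 100), robust empirical Bayes with trend, 1 array weight per group, all 15 libraries, genes with a mean of 100 or more, Benjamini-Hochberg adjustment. Intervals are 95%. Alternatives were a pseudocount of 10, no filter, a pooled spread, TMM scaling, a replicate block and leaving out each library. A further alternative was edgeR 4.0.16 on the recovered reads. It was not the main test because the deposited values are normalized, although the recovered reads were whole. Added after seeing the data were fits without the 6 sNAM and injNAM libraries.

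All members are named. Of the lists, called genes are named, up to 6 per list and comparison in order of adjusted p, and for each member its 2 best-correlated genes; genes named otherwise are marked. Members, lists and tests were chosen with earlier results of these data known. Gene positions and exon lengths are from GENCODE and sequences from RefSeq, both on GRCm38, the assembly that mm10 names. Replicates are separate libraries per the titles, and p-values measure the spread between them.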

Additional observations from a re-analysis of the deposited data

How the results depend on the processing

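Precision was limited by the injNAM and sNAM libraries, whose array weights were 0.311 and 0.175 against 3.21 for injIM and 3.43 for IM, and by the design of 3 libraries a group with shared mice. The replicate numbers were not taken as pairs, since for no 2 groups did every same-numbered pair have a correlation of deviations over 0.1. As a hint from the data, 28 of 30 such correlations were above 0, and in 44 of 60 pairings of a library with another group, the library correlated best with its own number among the 3. Counts of called members were, for injIM against IM (2 as reported), 0 with a pooled spread, 0 with edgeR and 4 with the replicate block. For recNAM against injIM (1) they were 0 without a filter, 0 with a pooled spread, 0 with edgeR, 4 with the replicate block, and without the sNAM and injNAM libraries 2 with limma and 0 with edgeR. For sNAM against IM (1) they were 0 with a pseudocount of 10, without a filter, with edgeR and with the replicate block, and 3 with a pooled spread. Leaving out each library gave 0 to 2 members for sNAM against IM and for injNAM against injIM, 0 to 3 for recNAM against injIM and 0 to 1 for recNAM against injNAM. Counts of called genes were, for injIM against IM, 708 as reported, 315 without a filter, 18 with a pooled spread, 3 with edgeR, 144 with edgeR without sNAM and injNAM, and 399 to 827 leaving out each library. For recNAM against injIM they were 652 as reported, 362 without a filter, 22 pooled, 10 with edgeR, 1211 with the block and 272 to 898 leaving out each library. For sNAM against IM they were 91 as reported, 0 with a pseudocount of 10, 727 pooled, 367 with edgeR and 0 to 108 leaving out each library. For injNAM against injIM they were 42 as reported, 102 without a filter, 69 pooled, 70 with the block and 2 to 75 leaving out each library. Where no gene was called, the counts without a filter, pooled and with edgeR were 4, 363 and 111 for injNAM against sNAM (0 to 1 leaving out each library), 12, 2 and 0 for recNAM against injNAM (0 to 39), and 6, 4 and 7 for the interaction. The causes of these shifts were not tested. The median difference over all genes in sNAM against IM was -0.26 and -0.14 with edgeR. No called difference changed sign; uncalled ones did. These were Nrp2 in recNAM against injNAM (0.084 with edgeR, 0.041 with TMM), Sema4c with a pseudocount of 10 in injNAM against sNAM (-0.71) and the interaction (-0.055), Sema6d with a pseudocount of 10 in injNAM against injIM (-0.14) and Sema6d in the interaction (0.66 with edgeR, 0.032 with TMM). Leaving out each library, the sign changed within -0.20 to 0.39 for Nrp1 and -0.14 to 0.23 for Nrp2 in recNAM against injNAM, -0.22 to 0.086 for Nrp2 in injIM against IM, -0.34 to 0.13 for Nrp2 and -0.21 to 0.25 for Plxnd1 in sNAM against IM, -0.25 to 0.34 for Plxnb2 in injNAM against sNAM, -0.41 to 0.041 for Plxnd1 and -0.040 to 0.080 for Sema4a in recNAM against injIM, and -0.20 to 0.065 for Sema4a in the interaction. Sema4c ran between -0.82 and 1.13 in injNAM against sNAM and between -0.54 and 1.41 in the interaction. Sema6d ran between -0.57 and 1.91 in injNAM against injIM, -2.11 and 0.37 in injNAM against sNAM, -1.23 and 1.25 in the interaction, -2.33 and 0.15 in recNAM against injNAM, and -0.36 and 1.18 in sNAM against IM. Of the single-member values, 1430 kept their direction and side of the threshold, 23 lost the call, 20 gained it and 37 changed sign. Gained calls included Nrp1, Nrp2 and Plxnb2 in recNAM against injIM and Sema4a and Plxnb2 in injIM against IM, all under the replicate block.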
